A study of Homo sapiens with 12 samples.

Results

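The genes described here encode the enzymes and carriers of mitochondrial and peroxisomal fatty acid oxidation. They were chosen by symbol from a list of 31 genes. The rule held no measured value, but the list was drawn up with earlier results of these data known. All 31 were found among the 57730 genes of the count table. All 31 also passed the filter on low counts, which left 14706 genes to test. Poly(A) RNA was sequenced from LM3 cells, which derive from MDA-MB-231, a human line of triple-negative breast cancer, and which spread to the lung. There were 12 libraries, in 4 groups of 3: cells with a short hairpin RNA against ACSL5 treated with palmitic acid (shACSL5_PA), control-hairpin cells treated with palmitic acid (shControl_PA), untreated cells with the ACSL5 hairpin (shACSL5) and untreated control-hairpin cells (shControl). All cells therefore carried a hairpin vector. The sources used here name neither the hairpin's bases nor the amount, time and solvent of the palmitic acid, so palmitate and its solvent cannot be told apart. The labels do not state that replicates came from different cultures. The p-values then reflect library-to-library spread that may be technical.

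Fatty acids are activated to acyl-CoA by synthetases such as ACSL5, carried into mitochondria as acylcarnitines and shortened there in a repeated cycle of dehydrogenation, hydration, a second dehydrogenation and thiolysis. Electrons from the dehydrogenation that opens each cycle reach the respiratory chain through the electron transfer flavoprotein. Peroxisomes run a parallel cycle that opens with an oxidase in place of a dehydrogenase, and that handles very long-chain, branched and dicarboxylic acids and bile acid precursors. Many genes of both cycles are known targets of the PPAR nuclear receptors, which bind fatty acids.

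Library totals ran from 18875565 to 20623983 counts in shACSL5_PA, 18014888 to 18614091 in shControl_PA, 16788694 to 21814751 in shACSL5 and 17119570 to 18680316 in shControl. ACSL5 stood at 14.9, 13.3 and 17.6 CPM (counts scaled to library size with TMM factors) in shACSL5_PA, against 189, 194 and 190 CPM in shControl_PA, and at 10.9, 10.2 and 12.5 CPM in shACSL5, against 142, 143 and 145 CPM in shControl. The mean that remained was 8.01% with palmitate and 7.82% without it, and the groups did not overlap (exact permutation test, two-sided, p = 0.1 for each, the smallest that 3 against 3 libraries allow). The mesenchymal marker VIM ran from 2547 to 4030 CPM over the 12 libraries, while ESR1, the estrogen receptor, reached at most 0.439 CPM. Of the other luminal markers, PGR and CDH1 reached at most 0.0549 and 0.137 CPM. GATA3 ran from 4.89 to 9.44 CPM and FOXA1 from 6.22 to 7.90 CPM. The 6 mesenchymal markers summed to 6047 to 6324 CPM in shACSL5_PA and 7214 to 7374 CPM in shControl_PA, and to 6254 to 6421 CPM in shACSL5 and 7798 to 8049 CPM in shControl. VIM and MSN fell with the hairpin in both comparisons and EGFR rose, and in all 1 of the 6 was higher and 2 lower without palmitate, and 2 were higher and 4 lower under it. The 6 luminal markers summed to 14.2 to 16.3 CPM in shACSL5_PA and 15.0 to 17.98 CPM in shControl_PA, and to 16.3 to 17.7 CPM in shACSL5 and 19.6 to 22.1 CPM in shControl. Of these ERBB3 fell to 1.41 ± 0.326 CPM in shACSL5, against 6.21 ± 0.459 CPM in shControl (SD, n = 3 each; log2 -2.15, adjusted p = 6.17e-08), and to 2.55 ± 0.539 CPM in shControl_PA, against the same shControl libraries (log2 -1.28, adjusted p = 0.00016). Markers of T cells (CD3E), lung epithelium (SFTPC) and fat cells (ADIPOQ) were at 0 in every library. The summed level of the 6 immune markers ran from 45.2 to 53.8 CPM in shACSL5_PA and 35.7 to 36.9 CPM in shControl_PA, and from 47.2 to 52.8 CPM in shACSL5 and 35.0 to 37.4 CPM in shControl. CD68, a lysosomal protein that tumor cells also express, made up nearly all of it, and PTPRC, which marks all leukocytes, reached at most 0.369 CPM. The summed levels of the endothelial, hepatocyte, adipocyte and lung epithelial lists stayed at or under 5.87 CPM in every library. The part of these differences in the results below was not tested.

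Levels of the 31 genes can be set against each other only on a scale of length. The length used was that of all annotated exons of a gene together (GENCODE 29), not that of the transcript expressed. It ran from 1115 bases for HSD17B10 to 12086 for HADH, so the order below depends on the annotation. On the scale of mean CPM per kilobase of exonic length, ECHS1, the short-chain enoyl-CoA hydratase, led in shControl with 70.4, followed by HADHA, the alpha subunit of the trifunctional protein, with 54.8. ACADVL, the very long-chain acyl-CoA dehydrogenase, came next with 37.2 and ETFA, the alpha subunit of the electron transfer flavoprotein, with 28.98. The lowest were EHHADH, the peroxisomal bifunctional enzyme, with 1.78, CPT2, the inner-membrane carnitine palmitoyltransferase, with 1.64, and ACAD10 with 1.35. In shACSL5_PA the top of the order was ACADVL with 79.8 CPM per kilobase, beside ECHS1 with 79.5. HSD17B10, a mitochondrial short-chain dehydrogenase that acts on hydroxyacyl-CoA and is also a subunit of mitochondrial RNase P, had a place in this order that differed with the hairpin. It was at 50.4 CPM per kilobase in shACSL5 and at 8.36 in shControl, where it ranked 14th.

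The first question was how these genes differed between cells with the ACSL5 hairpin and control-hairpin cells. The labels name no second ACSL5 hairpin and no cells with ACSL5 restored. Loss of ACSL5 and other effects of the hairpin therefore cannot be told apart. Without palmitate, 8 of the 31 genes were higher and 15 lower in shACSL5 than in shControl, called at an adjusted p under 0.05 in edgeR's quasi-likelihood test with Benjamini-Hochberg adjustment over all genes tested. That is 74.2% called, against a background of 62.3% of the 14706 genes (29.7% higher and 32.6% lower). Under palmitate, 7 were higher and 12 lower in shACSL5_PA than in shControl_PA, or 61.3%, against a background of 50.5% (24.4% higher and 26.1% lower). The median log2 change over the 31 genes was -0.16 without palmitate and -0.07 under it, and that over all genes -0.02 and -0.0029. In both comparisons 7 genes were higher (ACADVL, ECHS1, HADHA, HADH, HSD17B10, ECI1 and ETFA) and 11 lower (ABCD3, ACADM, ACOX3, AMACR, CRAT, CROT, DECR1, ETFDH, HSD17B4, PECR and SCP2), and 0 genes were called in opposite directions. The difference between these shares and the background was not tested.

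**Figure D1:**
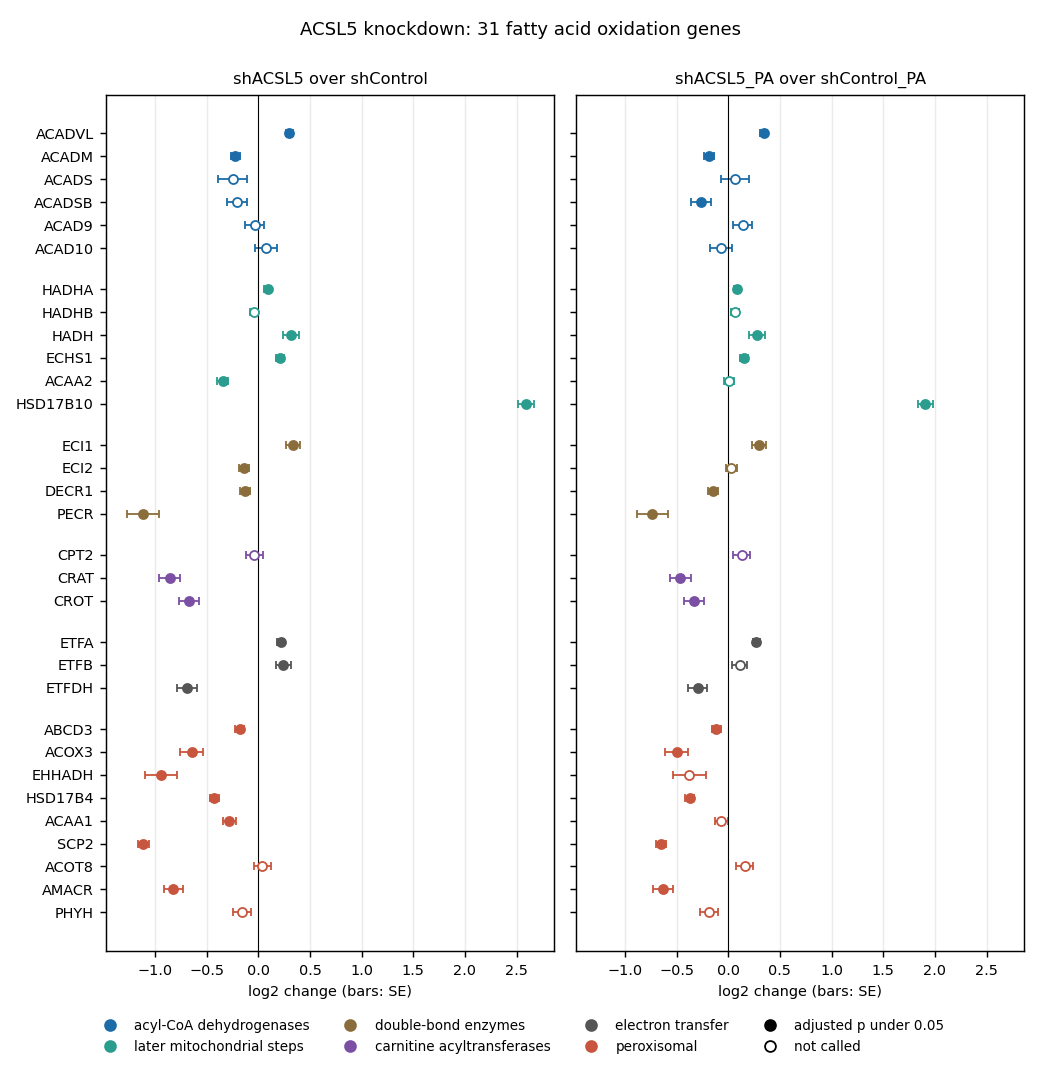
Log2 change with the ACSL5 hairpin for each of the 31 genes, shACSL5 over shControl on the left and shACSL5_PA over shControl_PA on the right, with bars for the SE and filled points for genes called at an adjusted p under 0.05. HSD17B10 lies far right of the others at 2.59 and 1.91, and 7 and 5 of the 9 peroxisomal genes at the foot of the panels are filled and left of 0.

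HSD17B10 had the highest fold of the 31 genes. It was at 53.8, 52.9 and 53.6 CPM in shACSL5_PA, 15.2, 14.4 and 13.1 CPM in shControl_PA, 57.1, 52.2 and 59.2 CPM in shACSL5, and 9.63, 8.45 and 9.89 CPM in shControl. Both groups with the ACSL5 hairpin lay far above both groups without it. The gene rose 6.02-fold in shACSL5 against shControl (log2 2.59, SE 0.08, adjusted p = 1.24e-17) and 3.75-fold in shACSL5_PA against shControl_PA (log2 1.91, SE 0.07, adjusted p = 2.48e-15). It lies on the minus strand of chromosome X at 53431258 to 53434373 (GRCh38, GENCODE 29), and 0% of its exonic length is shared with another annotated gene.

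The other genes of the later mitochondrial steps changed far less. HADH, the medium- and short-chain hydroxyacyl-CoA dehydrogenase, averaged 38.2 ± 1.77 CPM in shACSL5 and 30.7 ± 2.60 CPM in shControl (SD, n = 3 each; log2 0.32, adjusted p = 0.000937), and was higher with the hairpin under palmitate too (log2 0.27, adjusted p = 0.00437). ECHS1 was 1.16-fold higher without palmitate (adjusted p = 6.07e-05) and 1.11-fold under it (adjusted p = 0.0028). HADHA and HADHB are the subunits of the trifunctional protein, which catalyses the last 3 steps of the cycle for long chains, and their genes start beside each other on opposite strands of chromosome 2. HADHA averaged 256 ± 6.35 CPM in shACSL5 and 240 ± 3.92 CPM in shControl, 1.06-fold higher (log2 0.09, adjusted p = 0.0184), and was also 1.06-fold higher under palmitate (adjusted p = 0.0364). The HADHA call in untreated cells was lost without shACSL5 replicate 1 (adjusted p = 0.0694) or 3 (0.0609) or shControl replicate 1 (0.0689). That under palmitate was lost without shACSL5_PA replicate 1 (0.0507) or 3 (0.169) or any shControl_PA replicate (0.0929, 0.058 and 0.077 for replicates 1, 2 and 3). HADHB was not called, with log2 differences of -0.04 and 0.06.

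ACAA2, the mitochondrial thiolase that acts on medium and long chains, was the 1 gene of these steps that was lower with the ACSL5 hairpin. Its values were 80.7, 80.4 and 89.1 CPM in shACSL5_PA, 83.5, 84.4 and 80.8 CPM in shControl_PA, 45.2, 42.0 and 45.0 CPM in shACSL5, and 54.7, 54.1 and 59.5 CPM in shControl. Untreated knockdown libraries were all below the untreated controls, whereas the groups with palmitate overlapped. The gene fell in shACSL5 (log2 -0.35, SE 0.06, adjusted p = 1.15e-05), and its difference under palmitate was 0.01 on the log2 scale (adjusted p = 0.917). It is annotated on the minus strand of chromosome 18 at 49782167 to 49813960 and shares 7.59% of its exonic length with an overlapping gene model on the same strand.

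Among the 6 acyl-CoA dehydrogenases, which open the mitochondrial cycle, ACADVL was higher and ACADM lower. ACADVL was at 385, 384 and 397 CPM in shACSL5_PA, 310, 311 and 298 CPM in shControl_PA, 224, 215 and 228 CPM in shACSL5, and 180, 176 and 186 CPM in shControl. The 4 groups did not overlap, and both knockdown groups lay above the control group of the same treatment. It rose 1.23-fold without palmitate (log2 0.30, SE 0.03, adjusted p = 6.94e-08) and 1.27-fold under palmitate (log2 0.34, SE 0.03, adjusted p = 8.52e-09). The gene lies on the plus strand of chromosome 17 at 7217125 to 7225273. ACADM, the medium-chain enzyme, averaged 119 ± 5.14 CPM in shACSL5_PA, 136 ± 5.08 CPM in shControl_PA, 114 ± 6.26 CPM in shACSL5 and 133 ± 4.06 CPM in shControl. It was lower with the hairpin in both comparisons (log2 -0.22, adjusted p = 0.000192, and log2 -0.19 under palmitate, adjusted p = 0.00149). ACADSB, which acts on short branched chains, was called lower under palmitate (log2 -0.26, adjusted p = 0.0247), and at -0.20 without palmitate it missed the threshold (adjusted p = 0.0655). The untreated difference was called in 4 of 19 alternatives: without shACSL5 replicate 2 (adjusted p = 0.00988) or shControl replicate 3 (0.0474), with library sizes alone (0.041) and with a replicate block (0.0372). The ACADSB call under palmitate was lost without shACSL5_PA replicate 1 (adjusted p = 0.0768) or 3 (0.0918) or shControl_PA replicate 2 (0.0614) or 3 (0.0613), and in DESeq2 (0.055). ACADS, the short-chain enzyme, ACAD9, which also assembles respiratory complex I, and ACAD10 were not called in either comparison. ACADS passed without palmitate when shACSL5 replicate 1 was left out (log2 -0.36, adjusted p = 0.0482).

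The stretches around the starts of 5 of these genes are shown because their transcripts carry the changes above and below or, for HADHA and HADHB, because the genes share a start region and were not called alike. Each runs from 250 bases before to 50 after the start in RefSeq (GRCh38.p14), 5′ to 3′ on the gene's own strand. Capitals mark the word AGGTCA (the core of nuclear receptor sites), the CCAAT box, the GC box (GGGCGG) or the TATA box (TATAAA) on either strand. The positions are chr17:7216875-7217174 on the plus strand for ACADVL, chr18:49813484-49813783 on the minus strand for ACAA2, chrX:53434327-53434626 on the minus strand for HSD17B10, chr2:26244583-26244882 on the minus strand for HADHA and chr2:26244689-26244988 on the plus strand for HADHB.
ACADVL: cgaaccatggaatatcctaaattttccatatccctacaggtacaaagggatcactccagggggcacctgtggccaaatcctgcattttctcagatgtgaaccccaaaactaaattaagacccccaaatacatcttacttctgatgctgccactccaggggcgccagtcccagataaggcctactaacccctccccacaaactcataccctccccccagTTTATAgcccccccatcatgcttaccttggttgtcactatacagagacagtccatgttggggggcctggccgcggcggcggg
ACAA2: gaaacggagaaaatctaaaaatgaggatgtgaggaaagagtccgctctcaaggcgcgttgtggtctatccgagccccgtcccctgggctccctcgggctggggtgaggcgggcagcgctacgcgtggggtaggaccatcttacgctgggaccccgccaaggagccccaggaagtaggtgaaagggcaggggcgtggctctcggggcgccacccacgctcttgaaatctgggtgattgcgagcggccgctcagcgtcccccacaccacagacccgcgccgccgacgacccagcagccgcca
HSD17B10: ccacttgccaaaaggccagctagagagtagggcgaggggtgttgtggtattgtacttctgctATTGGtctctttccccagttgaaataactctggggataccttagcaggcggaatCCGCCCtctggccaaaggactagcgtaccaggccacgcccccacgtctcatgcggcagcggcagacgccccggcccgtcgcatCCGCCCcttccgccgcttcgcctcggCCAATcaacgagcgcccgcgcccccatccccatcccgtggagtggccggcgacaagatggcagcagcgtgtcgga
HADHA: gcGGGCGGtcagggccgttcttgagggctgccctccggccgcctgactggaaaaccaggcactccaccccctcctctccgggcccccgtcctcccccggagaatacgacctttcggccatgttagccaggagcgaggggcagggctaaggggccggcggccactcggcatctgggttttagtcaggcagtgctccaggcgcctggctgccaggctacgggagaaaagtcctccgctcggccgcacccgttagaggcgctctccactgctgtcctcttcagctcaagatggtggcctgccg
HADHB: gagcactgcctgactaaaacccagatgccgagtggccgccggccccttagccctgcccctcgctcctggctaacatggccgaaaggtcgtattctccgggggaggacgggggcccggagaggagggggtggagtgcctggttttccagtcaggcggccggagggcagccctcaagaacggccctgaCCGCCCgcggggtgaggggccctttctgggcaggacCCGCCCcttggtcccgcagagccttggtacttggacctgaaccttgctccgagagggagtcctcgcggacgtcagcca
The HADHA and HADHB starts are 307 bases apart, and 194 bases of their stretches are the same DNA read from opposite strands. HSD17B10 held 2 CCAAT and 2 GC box matches, HADHB 2 GC box matches, HADHA 1 GC box match, ACADVL 1 TATAAA match on the opposite strand, and ACAA2 0 matches. The HADHA match and the first HADHB match are the same site in the shared DNA, which counts for both genes below.

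Of the 31 genes, 26 had such a stretch in RefSeq's table. AGGTCA, searched on both strands, was in 1 of the 26 (ACAD10; 3.8%), against 13.94% of all 27305 promoters of the same length. Its direct repeat with 1 base between the copies was in 0 of 26 and in 0.02% of all promoters. GGGCGG was in 22 of 26 (84.6%), against 44.59% of all promoters, and the median GC content was 67.0% over the 26 and 58.3% over all. CCAAT was in 8 of 26 (30.8%), against 35.7%, and TATAAA in 1 of 26 (3.8%), against 11.95%. The longer words TCAAGGTCA (whose end is AGGTCA, so that the matches overlap), the palindromic NRF1 site, and the sterol element TCACCCCAC were in 0 of 26, against 0.36%, 1.36% and 0.42% of all. These matches describe letters in this window alone.

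Enzymes that deal with double bonds moved in both directions. ECI1, the mitochondrial enoyl-CoA isomerase, averaged 40.8 ± 3.23 CPM in shACSL5_PA, 33.3 ± 1.85 CPM in shControl_PA, 42.8 ± 2.04 CPM in shACSL5 and 34.0 ± 0.517 CPM in shControl, and rose in both comparisons (log2 0.33, adjusted p = 0.000128, and log2 0.30 under palmitate, adjusted p = 0.000688). PECR, the peroxisomal trans-enoyl-CoA reductase, was at 4.16, 4.20 and 5.86 CPM in shACSL5_PA, 7.43, 7.87 and 8.34 CPM in shControl_PA, 3.76, 4.68 and 3.59 CPM in shACSL5, and 9.00, 8.45 and 8.58 CPM in shControl. Each knockdown library was below every control library of the same treatment. The fold was 0.46 without palmitate (log2 -1.12, SE 0.15, adjusted p = 1.18e-06) and 0.60 under it (log2 -0.74, SE 0.15, adjusted p = 0.000289). PECR is on the minus strand of chromosome 2 at 215996329 to 216082955. DECR1, the mitochondrial dienoyl-CoA reductase, was slightly lower in both (log2 -0.13, adjusted p = 0.0196, and log2 -0.15, adjusted p = 0.0148). ECI2, an isomerase found in mitochondria and peroxisomes, was lower without palmitate alone (log2 -0.14, adjusted p = 0.0205). Genes on the opposite strand overlap 29.81% of the exonic length of ECI2, and the strand setting of the counting is not given. The DECR1 call without palmitate was lost without shACSL5 replicate 1 (adjusted p = 0.0901) or 3 (0.0701) or shControl replicate 3 (0.0523), and its call under palmitate without shACSL5_PA replicate 3 (0.0515) or shControl_PA replicate 2 (0.0803). The ECI2 call was lost without shACSL5 replicate 1 (adjusted p = 0.0646) or shControl replicate 2 (0.0556) or 3 (0.066).

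Among the carnitine acyltransferases chosen for the list, CRAT and CROT fell with the ACSL5 hairpin. CPT1A, CPT1B and CPT1C were outside this list and are described below. CRAT, which makes acetylcarnitine in mitochondria and peroxisomes, was at 14.7, 12.5 and 16.1 CPM in shACSL5_PA, 19.4, 21.4 and 19.0 CPM in shControl_PA, 17.04, 13.7 and 13.6 CPM in shACSL5, and 25.5, 26.4 and 28.7 CPM in shControl. Every knockdown library was lower than every control library of its treatment. The log2 change was -0.86 without palmitate (SE 0.10, adjusted p = 1.04e-07) and -0.46 under it (SE 0.10, adjusted p = 0.000615). CROT, the peroxisomal octanoyltransferase, was at 16.02, 15.5 and 15.3 CPM in shACSL5_PA, 19.8, 18.3 and 20.9 CPM in shControl_PA, 13.5, 16.2 and 12.6 CPM in shACSL5, and 24.2, 19.98 and 23.0 CPM in shControl. These groups did not overlap either, and the log2 change was -0.67 (SE 0.10, adjusted p = 2.56e-06) and, under palmitate, -0.33 (SE 0.10, adjusted p = 0.00645). CPT2 was not called, at -0.04 and 0.13. CRAT lies on the minus strand of chromosome 9 at 129094810 to 129111189, and CROT on the plus strand of chromosome 7 at 87345681 to 87399795.

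The electron transfer chain of the cycle split between its parts. ETFA averaged 213 ± 5.92 CPM in shACSL5_PA, 177 ± 2.31 CPM in shControl_PA, 169 ± 1.19 CPM in shACSL5 and 146 ± 3.09 CPM in shControl, and rose in both comparisons (log2 0.21, adjusted p = 1.06e-05, and log2 0.27 under palmitate, adjusted p = 5.94e-07). ETFB, the beta subunit, was called higher without palmitate (log2 0.24, adjusted p = 0.00779), although its groups overlapped and the call was lost without shACSL5 replicate 3 (adjusted p = 0.0714). ETFDH, the oxidoreductase that passes the electrons to ubiquinone, was at 15.2, 15.9 and 14.8 CPM in shACSL5_PA, 18.4, 20.3 and 17.7 CPM in shControl_PA, 11.1, 10.0 and 9.33 CPM in shACSL5, and 16.6, 17.5 and 15.2 CPM in shControl. Knockdown libraries were below the controls in both treatments. The gene fell without palmitate (log2 -0.69, SE 0.10, adjusted p = 1.71e-06) and under it (log2 -0.30, SE 0.09, adjusted p = 0.00949). The call under palmitate was lost without shControl_PA replicate 2 (adjusted p = 0.068). ETFDH is on the plus strand of chromosome 4 at 158672125 to 158709623, where 13.82% of its exonic length overlaps genes on the opposite strand. The sources used here do not give the strand setting of the counting, so such reads cannot be told apart.

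Of the 9 peroxisomal genes, 7 fell and 0 rose without palmitate, where 32.6% of all genes tested were lower and 29.7% higher. Under palmitate 5 fell and 0 rose, where 26.1% of all genes were lower and 24.4% higher. Their summed level averaged 441 ± 9.03 CPM in shACSL5_PA and 527 ± 3.93 CPM in shControl_PA, and 403 ± 5.66 CPM in shACSL5 and 531 ± 10.6 CPM in shControl. The median log2 change was -0.43 and, under palmitate, -0.37. PECR and CROT, described above with their enzyme classes, are peroxisomal proteins as well.

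SCP2, which encodes sterol carrier protein and a thiolase for branched chains, was at 47.4, 50.8 and 46.3 CPM in shACSL5_PA, 74.3, 76.0 and 76.3 CPM in shControl_PA, 41.1, 40.7 and 38.2 CPM in shACSL5, and 87.3, 85.7 and 86.8 CPM in shControl. The knockdown libraries were far below the controls in both treatments. Its fold was 0.46 without palmitate (log2 -1.11, SE 0.05, adjusted p = 9.99e-15) and 0.64 under it (log2 -0.65, SE 0.05, adjusted p = 2.17e-10). SCP2 lies on the plus strand of chromosome 1 at 52927229 to 53051703, and 20.71% of its exonic length overlaps pseudogenes.

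EHHADH, which hydrates and dehydrogenates straight and dicarboxylic chains, was low throughout, at 4.85, 5.41 and 5.00 CPM in shACSL5_PA, 7.54, 5.73 and 6.54 CPM in shControl_PA, 3.76, 3.73 and 5.54 CPM in shACSL5, and 8.37, 8.34 and 8.31 CPM in shControl. It fell without palmitate (log2 -0.94, SE 0.16, adjusted p = 1.83e-05), and under palmitate the groups did not overlap but the difference of -0.38 narrowly missed the threshold (SE 0.16, adjusted p = 0.0513). That difference passed without shControl_PA replicate 2 (log2 -0.46, adjusted p = 0.0316) or shACSL5 replicate 2 (adjusted p = 0.049) or 3 (0.0299). HSD17B4, the D-bifunctional protein, which serves branched and very long chains, was at 100.3, 102 and 95.2 CPM in shACSL5_PA, 125, 126 and 134 CPM in shControl_PA, 90.1, 87.9 and 94.5 CPM in shACSL5, and 121, 118 and 127 CPM in shControl. Knockdown libraries were lower in both treatments, by -0.43 (SE 0.04, adjusted p = 1.85e-08) and -0.37 (SE 0.04, adjusted p = 2.36e-07) on the log2 scale. EHHADH is on the minus strand of chromosome 3 at 185190624 to 185281990 and HSD17B4 on the plus strand of chromosome 5 at 119452443 to 119637199.

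ACOX3, an oxidase for branched chains, was at 9.01, 8.39 and 8.98 CPM in shACSL5_PA, 11.2, 11.6 and 14.6 CPM in shControl_PA, 8.38, 7.88 and 8.28 CPM in shACSL5, and 12.3, 13.1 and 13.1 CPM in shControl. Every knockdown library was lower than every control library (log2 -0.65, SE 0.11, adjusted p = 2.9e-05, and under palmitate log2 -0.50, SE 0.11, adjusted p = 0.000644). AMACR, the racemase that prepares branched acyl-CoA for the oxidases, was at 11.8, 11.2 and 14.1 CPM in shACSL5_PA, 18.4, 20.3 and 18.9 CPM in shControl_PA, 13.5, 13.0 and 15.3 CPM in shACSL5, and 24.8, 24.4 and 24.9 CPM in shControl. Again no knockdown library reached a control library, and the log2 change was -0.82 (SE 0.09, adjusted p = 5.2e-08) and, under palmitate, -0.63 (SE 0.10, adjusted p = 7.03e-06). The AMACR value is uncertain as a gene level, since 54.98% of its exonic length is shared with the C1QTNF3-AMACR readthrough gene and reads could be split between them. ACOX3 is on the minus strand of chromosome 4 at 8366282 to 8440723 and AMACR on the minus strand of chromosome 5 at 33986178 to 34008108.

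ABCD3, the carrier that brings acyl-CoA into peroxisomes, fell slightly in both comparisons (log2 -0.18, adjusted p = 0.000507, and under palmitate log2 -0.11, adjusted p = 0.0217). The call under palmitate was lost without shACSL5_PA replicate 1 (adjusted p = 0.0583) or 3 (0.0556) or shControl_PA replicate 1 (0.0704). ACAA1, the peroxisomal thiolase, fell without palmitate (log2 -0.28, adjusted p = 0.000394) and stood at -0.07 under it (adjusted p = 0.372). PHYH, which starts the breakdown of phytanic acid, was not called, at -0.16 and -0.18, nor was ACOT8, a peroxisomal thioesterase, at 0.04 and 0.16. ACOT8 passed under palmitate without shControl_PA replicate 1 (log2 0.23, adjusted p = 0.0497). Genes on the opposite strand overlap 19.74% of the exonic length of ACAA1 and 35.34% of that of ACOT8, and such reads cannot be told apart here.

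**Figure D2:**
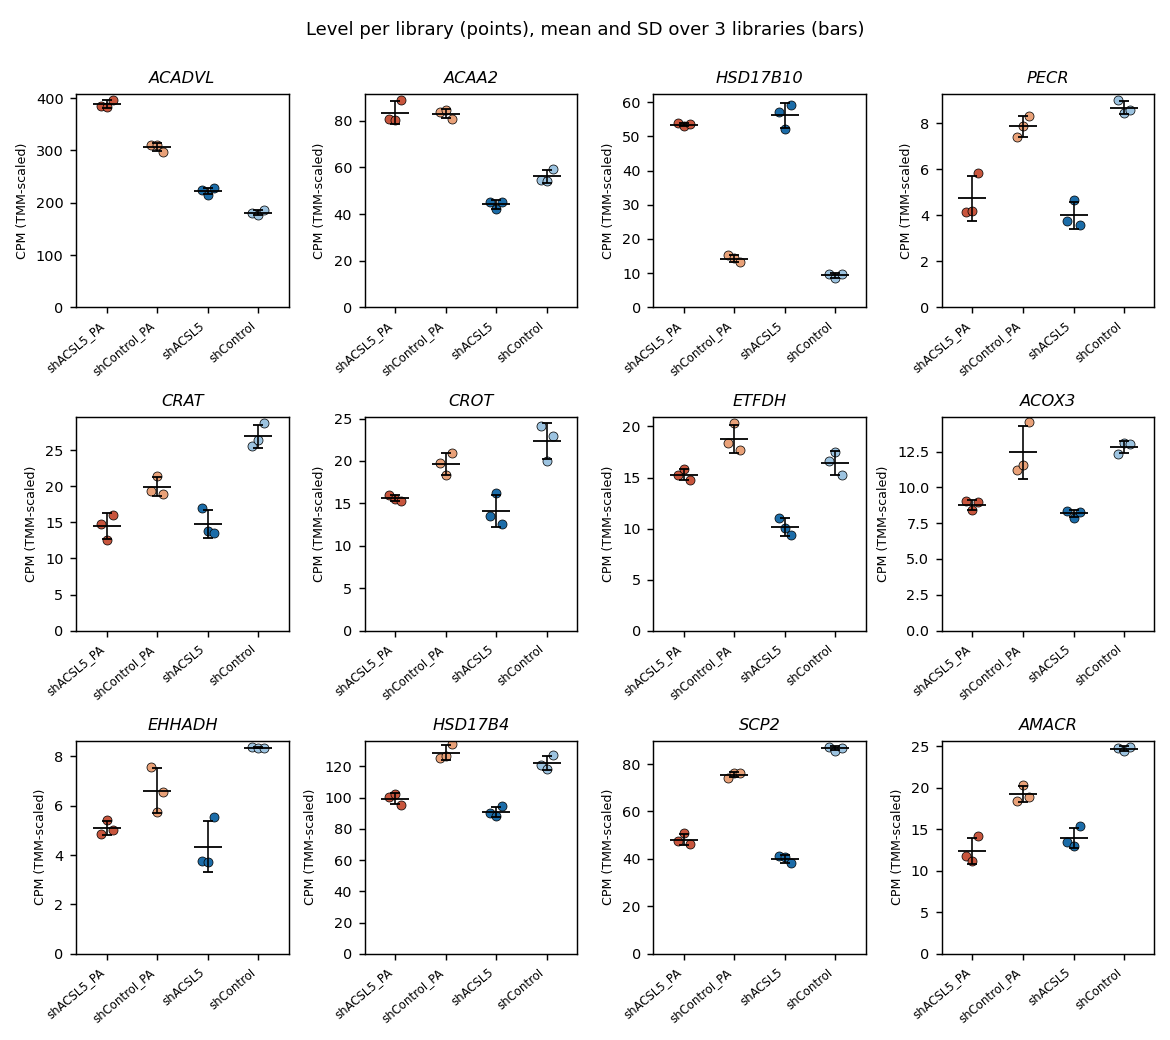
TMM-scaled CPM of 12 genes in each of the 12 libraries (points) with the mean and SD of each group (bars), axes from 0, for the genes called with an absolute log2 change of 0.4 or more in any pair of groups or called in the interaction. ACADVL steps down through all 4 groups, HSD17B10 is above 50 CPM in both groups with the ACSL5 hairpin and below 16 CPM in the others, and SCP2 is highest in shControl.

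The next question was what palmitate changed. In knockdown cells, 9 of the 31 genes were higher and 0 lower in shACSL5_PA than in shACSL5, against a background of 21.9% of all genes (12.1% higher and 9.78% lower). In control cells, 6 were higher and 4 lower in shControl_PA than in shControl, or 32.3%, against a background of 28.7% (15.1% higher and 13.5% lower). The median log2 change over the 31 genes was 0.10 in knockdown cells and -0.01 in control cells, and that over all genes 0.01 and -0.0026. With library sizes alone in place of TMM factors, 4 genes were higher and 4 lower in control cells, and the share of higher among all genes called in control cells was 35.9%, against 52.8% with TMM factors. ACADVL, ACAA2, ETFA and HADHA were higher in both. The summed level of the 31 genes averaged 2157 ± 9.43 CPM in shACSL5_PA and 1839 ± 9.50 CPM in shACSL5, and 2074 ± 20.3 CPM in shControl_PA and 1882 ± 19.9 CPM in shControl. Abundant genes weigh most in this sum: ACADVL alone averaged 388 CPM in shACSL5_PA, 223 in shACSL5, 306 in shControl_PA and 181 in shControl. By sign, 20 genes had a positive and 11 a negative log2 change in knockdown cells, and 15 and 16 in control cells.

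**Figure D3:**
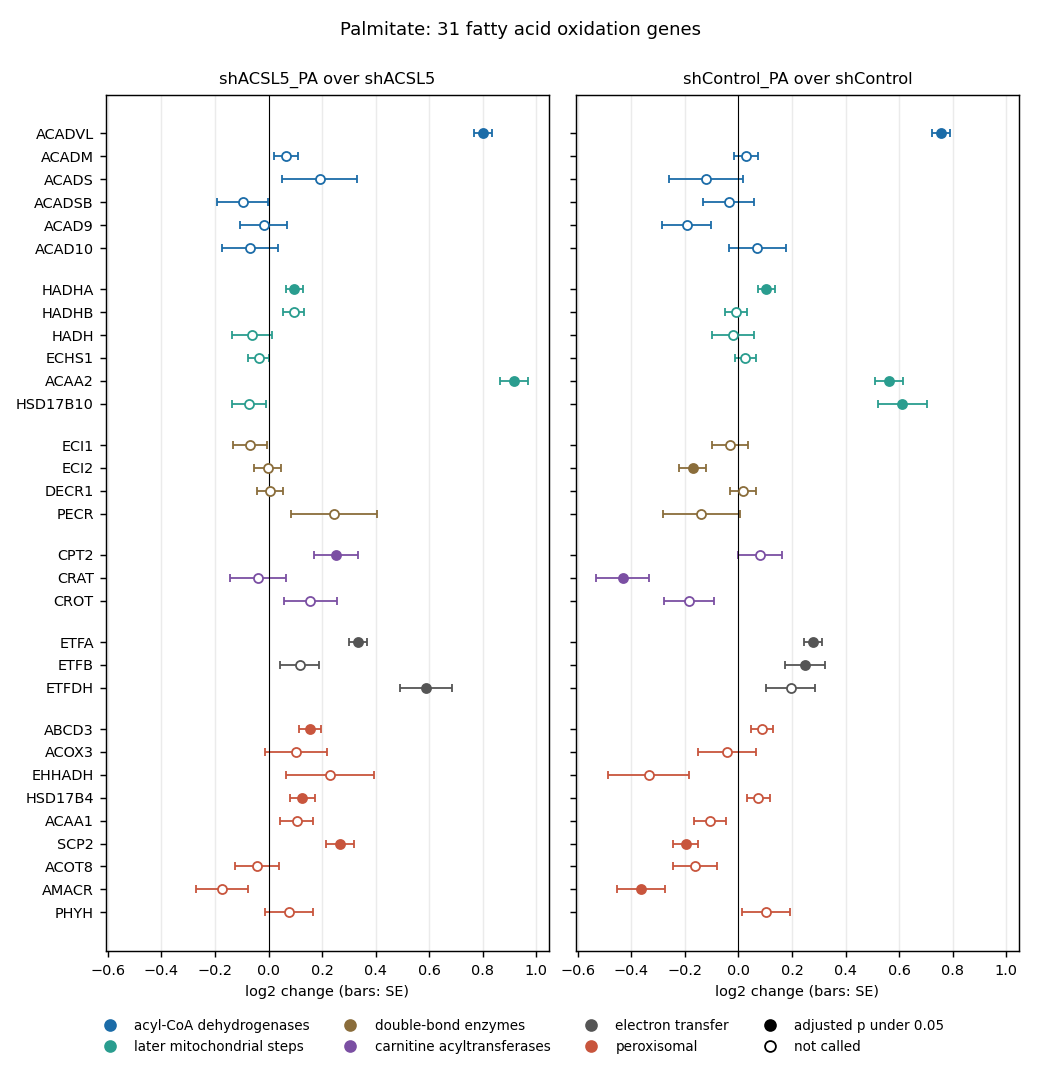
Log2 change with palmitate for each of the 31 genes, shACSL5_PA over shACSL5 on the left and shControl_PA over shControl on the right, with bars for the SE and filled points for genes called at an adjusted p under 0.05. ACADVL at 0.80 and 0.76 and ACAA2 at 0.92 and 0.56 lie to the right in both panels, and no filled point in the knockdown panel is left of 0.

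ACADVL and ACAA2, which act at opposite ends of the cycle on long chains, had the 2 highest palmitate responses among these genes in knockdown cells, and with HSD17B10 the 3 highest in control cells. ACADVL rose 1.74-fold in knockdown cells (log2 0.80, SE 0.03, adjusted p = 1.45e-13) and 1.69-fold in control cells (log2 0.76, SE 0.03, adjusted p = 1.42e-13), from the library values given above, where no palmitate library overlapped an untreated one. Its responses differed by 0.04 on the log2 scale (95% interval -0.05 to 0.14, adjusted p = 0.596). ACAA2 rose 1.89-fold in knockdown cells (log2 0.92, SE 0.05, adjusted p = 3.62e-11) and 1.48-fold in control cells (log2 0.56, SE 0.05, adjusted p = 4.45e-08). HSD17B10 rose 1.53-fold in control cells (log2 0.61, SE 0.09, adjusted p = 2.3e-05), and in knockdown cells its difference was -0.07 (SE 0.06, adjusted p = 0.454).

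ETFA rose 1.26-fold in knockdown cells (log2 0.33, adjusted p = 2.49e-07) and 1.21-fold in control cells (log2 0.28, adjusted p = 2.16e-06). ETFDH rose in knockdown cells (log2 0.59, SE 0.10, adjusted p = 0.000127) and stood at 0.19 in control cells (SE 0.09, adjusted p = 0.121). ETFB was higher in control cells (log2 0.25, adjusted p = 0.0166), a call lost without shControl_PA replicate 3 (adjusted p = 0.0669) or shControl replicate 3 (0.0765). HADHA was 1.07-fold higher in both (adjusted p = 0.0342 in knockdown and 0.018 in control cells). In knockdown cells that call was lost without shACSL5_PA replicate 1 (adjusted p = 0.0517) or 3 (0.134) or shACSL5 replicate 1 (0.0576) or 2 (0.128), and in control cells without shControl_PA replicate 2 (0.0515) or shControl replicate 1 (0.0631). CPT2, the last carnitine step before the cycle, was 1.19-fold higher in knockdown cells (adjusted p = 0.0304). Genes on the opposite strand overlap 11.96% of the exonic length of CPT2, and such reads cannot be told apart here. The CPT2 call was lost without shACSL5_PA replicate 1 (adjusted p = 0.0716) or 3 (0.0983) or shACSL5 replicate 1 (0.102) or 2 (0.0904).

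In knockdown cells SCP2 rose 1.20-fold (log2 0.27, SE 0.05, adjusted p = 0.000627), ABCD3 rose 1.11-fold (adjusted p = 0.00809) and HSD17B4 1.09-fold (adjusted p = 0.0466). The ABCD3 call was lost without shACSL5 replicate 3 (adjusted p = 0.0533). The HSD17B4 call was lost without shACSL5_PA replicate 1 (adjusted p = 0.117) or 2 (0.166), shControl_PA replicate 1 (0.0529), shACSL5 replicate 1 (0.124) or 2 (0.146) or shControl replicate 2 (0.0517). In control cells SCP2 and AMACR fell, with folds of 0.87 (log2 -0.20, SE 0.05, adjusted p = 0.00268) and 0.78 (log2 -0.36, SE 0.09, adjusted p = 0.00362). CRAT fell there too (log2 -0.43, SE 0.10, adjusted p = 0.00173), as did ECI2 (log2 -0.17, adjusted p = 0.0128). The ECI2 call was lost without shControl_PA replicate 3 (adjusted p = 0.051) or shControl replicate 3 (0.0512). PECR, CROT, ACOX3 and EHHADH were not called with palmitate in either cell type. Called in none of the 4 pairs of groups were ACAD9, ACAD10, ACADS, HADHB, ACOT8 and PHYH. For palmitate in control cells, ACAD9 passed without shControl_PA replicate 2 (log2 -0.28, adjusted p = 0.0477) and ABCD3 without shControl replicate 1 (log2 0.13, adjusted p = 0.0335). A gene on the opposite strand overlaps 10.49% of the exonic length of ACAD9.

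Whether knockdown and control cells responded differently to palmitate was tested as an interaction: the log2 response of shACSL5 cells less the log2 response of shControl cells. It was called for 3 of the 31 genes, 2 higher and 1 lower, or 9.68%, against a background of 14.5% of all genes (7.15% higher and 7.39% lower). With library sizes alone, 4 genes were called, 3 higher and 1 lower, and higher made up 59.9% of all called genes, against 49.2% with TMM factors. SCP2 had an interaction of 0.47 (SE 0.07, adjusted p = 8.68e-05), being higher with palmitate in knockdown cells and lower in control cells. ACAA2 had one of 0.35 (SE 0.08, adjusted p = 0.00275): it rose in both cell types, more in knockdown cells. HSD17B10 had one of -0.68 (SE 0.11, adjusted p = 0.000202), being higher with palmitate in control cells and not called with it in knockdown cells. Without shACSL5 replicate 1, 5 genes were called, the additional ones being ETFDH at 0.47 (adjusted p = 0.0359) and CRAT at 0.51 (adjusted p = 0.0225). With all libraries ETFDH stood at 0.39 (SE 0.13, adjusted p = 0.051) and CRAT at 0.39 (SE 0.14, adjusted p = 0.0701). ETFDH also passed without shControl_PA replicate 2 (adjusted p = 0.0369) or shControl replicate 3 (0.0378), and CRAT without shACSL5_PA replicate 2 (0.0318). ETFDH was called in 6 of 18 alternatives in all. The others were library sizes alone (adjusted p = 0.0365), a replicate block (0.041) and a filter of at least 1 CPM in at least 3 libraries (0.0443). CROT, at 0.34 with all libraries (adjusted p = 0.105), passed without shACSL5 replicate 2 (0.0308), and EHHADH, at 0.56 (adjusted p = 0.0978), without shACSL5 replicate 3 (0.0209).

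**Figure D4:**
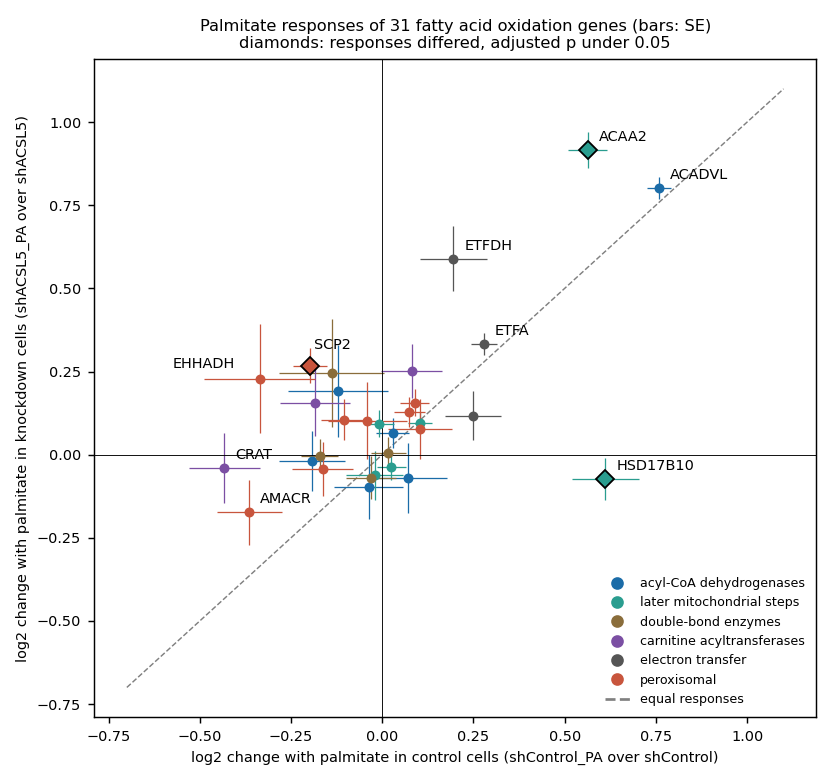
Log2 change with palmitate in knockdown cells (shACSL5_PA over shACSL5, vertical) against that in control cells (shControl_PA over shControl, horizontal) for the 31 genes, coloured by role, with bars for the SE and a dashed line of equal responses. Diamonds mark the genes called in the interaction: SCP2 and ACAA2 lie above the line and HSD17B10 lies far below it, while ACADVL lies close to it.

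A further list, arranged by role, held 67 partner genes, of which 62 passed the filter. Besides oxidation it takes in carnitine and ketone metabolism, valine breakdown, thioesterases, peroxisome assembly and regulators. Its shares are therefore not those of the pathway alone. Without palmitate, 14 of the 62 were higher and 23 lower with the ACSL5 hairpin (59.7%, background 62.3%), and under palmitate 16 were higher and 17 lower (53.2%, background 50.5%). With palmitate, 8 were higher and 5 lower in knockdown cells (21.0%, background 21.9%), and 6 were higher and 9 lower in control cells (24.2%, background 28.7%). The interaction was called for 4, with 3 higher and 1 lower (6.45%, background 14.5%).

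Entry into mitochondria starts with CPT1A, which makes acylcarnitine at the outer membrane and is the rate-limiting step. CPT1A was at 127, 131 and 137 CPM in shACSL5_PA, 126, 131 and 125 CPM in shControl_PA, 48.4, 46.9 and 52.6 CPM in shACSL5, and 48.9, 54.7 and 52.8 CPM in shControl. Palmitate libraries were all far above untreated ones, and knockdown and control groups of the same treatment overlapped. It rose 2.67-fold with palmitate in knockdown cells (log2 1.42, adjusted p = 1.29e-14) and 2.44-fold in control cells (log2 1.29, adjusted p = 1.63e-14), more in fold than any of the 31 genes. SLC25A20, the carrier that takes acylcarnitine to CPT2, averaged 24.0 ± 1.56 CPM in shACSL5_PA, 19.9 ± 1.39 CPM in shControl_PA, 13.2 ± 1.11 CPM in shACSL5 and 13.1 ± 1.20 CPM in shControl. It rose 1.82-fold with palmitate in knockdown cells (adjusted p = 5.72e-07) and 1.52-fold in control cells (adjusted p = 4.46e-05). CPT1C, a brain-type isoform with little known activity in mitochondria, rose with the hairpin (log2 0.90, adjusted p = 1.69e-06, and under palmitate log2 1.22, adjusted p = 8.84e-08) and fell with palmitate in control cells (adjusted p = 0.00427). CPT1B, the muscle isoform, was lower with the hairpin (adjusted p = 0.00555, and 0.00115 under palmitate), but 66.36% of its exonic length is shared with the CHKB-CPT1B readthrough gene.

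Among the peroxisomal partners, PEX2, a peroxisomal import factor, fell with the hairpin (log2 -1.07, adjusted p = 3.56e-11, and under palmitate log2 -0.73, adjusted p = 2.58e-08), and NUDT19, a peroxisomal CoA hydrolase, rose (log2 1.34, adjusted p = 3.38e-13, and log2 1.08, adjusted p = 3.58e-11). Of 16 genes of peroxisome assembly, 3 rose and 4 fell with the hairpin without palmitate (43.8% called, background 62.3%), and 3 rose and 3 fell under it (37.5%, background 50.5%). CAT, the peroxisomal catalase, rose with palmitate in knockdown cells (log2 0.43, adjusted p = 1.13e-05) and in control cells (log2 0.21, adjusted p = 0.00573). It was lower with the hairpin without palmitate (log2 -0.50, adjusted p = 6.71e-08) and under it (log2 -0.29, adjusted p = 0.000125).

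Of the receptors, PPARA averaged 21.7 ± 0.865 CPM in shACSL5_PA, 28.3 ± 2.04 CPM in shControl_PA, 27.6 ± 0.797 CPM in shACSL5 and 36.0 ± 1.02 CPM in shControl. It fell in all 4 pairs of groups, with folds of 0.77 to 0.79 (adjusted p from 3.36e-05 to 0.000886). PPARD averaged 74.6 ± 6.73 CPM in shACSL5_PA, 47.0 ± 2.58 CPM in shControl_PA, 73.5 ± 4.30 CPM in shACSL5 and 41.5 ± 1.64 CPM in shControl, and rose with the hairpin (1.77-fold higher, adjusted p = 1.56e-10, and 1.59-fold higher under palmitate, adjusted p = 9.79e-09). Its palmitate difference was not called in knockdown cells (adjusted p = 0.856) or control cells (adjusted p = 0.0509). PPARG fell with palmitate in knockdown cells (log2 -0.43, adjusted p = 2.97e-05) and in control cells (log2 -0.21, adjusted p = 0.0168). Its call in control cells was lost without shControl_PA replicate 2 (adjusted p = 0.0912) or shControl replicate 2 (0.0904). ACAT1, the mitochondrial acetoacetyl-CoA thiolase of ketone body metabolism, rose with the hairpin (log2 0.66, adjusted p = 3.85e-11, and under palmitate log2 0.51, adjusted p = 8.15e-09), and HIBADH, of valine breakdown, fell with palmitate in control cells (log2 -0.22, adjusted p = 0.00346). HIBADH was also lower with the hairpin without palmitate (log2 -0.39, adjusted p = 1.19e-06), and ACAT1 fell with palmitate in knockdown cells (log2 -0.18, adjusted p = 0.00543).

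**Figure D5:**
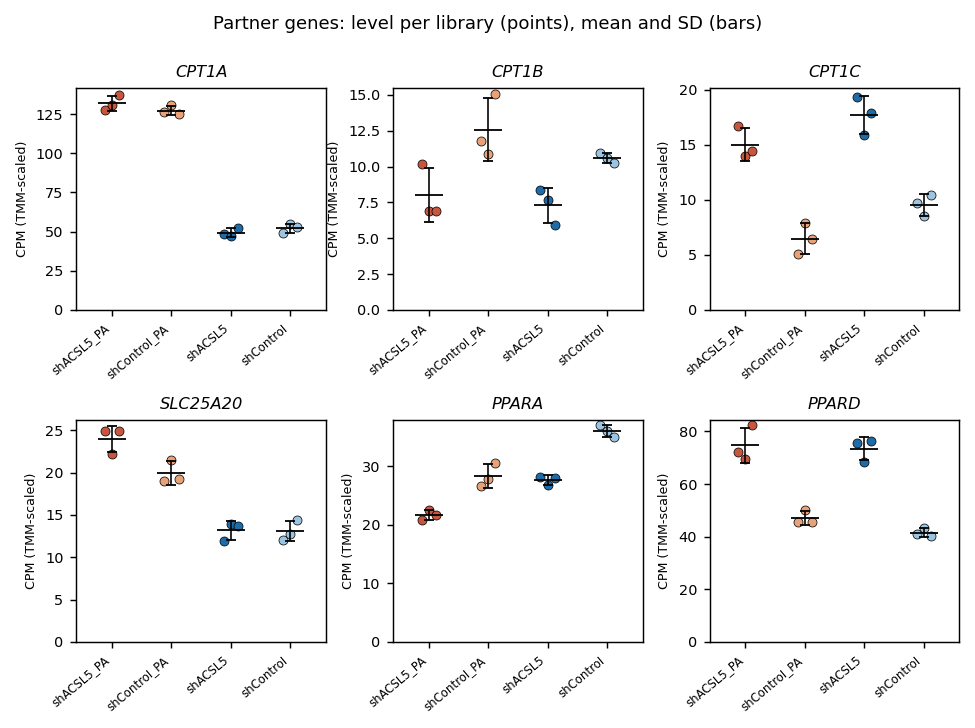
TMM-scaled CPM of 6 partner genes outside the list of 31 in each of the 12 libraries (points) with the mean and SD of each group (bars), axes from 0. CPT1A and SLC25A20 are higher in both palmitate groups, and PPARD is higher in both groups with the ACSL5 hairpin.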

How the data were processed

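RNA of 12 libraries in 4 groups of 3 was analysed, with groups and replicate numbers taken from the labels. The deposited values are whole-number counts of reads for each gene with no normalization. The submitters' processing notes name HISAT2 2.1.0, fastp 0.22.0, featureCounts (no version) and GRCh38. Neither the strand setting nor the annotation release is given there, so reads where genes of opposite strands overlap cannot be told apart, and gene positions come from GENCODE 29. Ensembl identifiers were matched to current symbols for 51928 of 57730 genes.

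The low-count filter was filterByExpr, and 14706 genes passed it. In edgeR 4.0.16 (R 4.3.3), TMM factors were computed and all 12 libraries entered a single quasi-likelihood model, with p-values adjusted by Benjamini-Hochberg over the 14706 genes and called under 0.05. The common dispersion was 0.00203. An adjusted p is from this model where no other is named. The SE, an approximation, is the size of the coefficient over the square root of F. The pipeline was tested on simulated data with known changes. The simulation changed genes in shControl_PA alone, fewer than were called here, and used the common dispersion for all genes. It therefore does not cover changes as broad as those found here. Members, lists and tests were chosen with earlier results of these data known. Library values are given for members called with an absolute log2 change of at least 0.4 in any of 4 pairs of groups or called in the interaction. Partner genes are counted, with CPT1A, CPT1B, CPT1C, SLC25A20, PPARA and PPARD and up to 4 with the smallest p per comparison named. Some listed genes are counted but not reported here by name. Replicates within a group differed beyond sampling noise (chi-square per degree of freedom from 2.23 to 4.37), and none were merged.

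Alternatives were RLE factors, library sizes alone, DESeq2 1.42.0, other filters on low counts, only the groups compared, a replicate block, and each library left out in turn. Promoter stretches are RefSeq's (GRCh38.p14).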

Additional observations from a re-analysis of the deposited data

Results flagged for a closer look

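The palmitate response differed between knockdown and control cells, by the interaction test over all genes (edgeR's quasi-likelihood test, Benjamini-Hochberg adjustment), for 6 listed genes that are given here. SCP2 differed by 0.47 on the log2 scale, ACAA2 by 0.35 and HSD17B10 by -0.68, and each of these was also called in the 18 alternatives run for it, with adjusted p up to 0.000558, 0.0113 and 0.0014.

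Outside the 31 genes, MCEE, methylmalonyl-CoA epimerase, averaged 2.77 ± 0.567 CPM in shACSL5_PA, 3.05 ± 0.454 CPM in shControl_PA, 4.07 ± 0.319 CPM in shACSL5 and 1.77 ± 0.777 CPM in shControl, and its responses differed by -1.33 (SE 0.37, adjusted p = 0.0175), or by -1.21 without shControl_PA replicate 1 (adjusted p = 0.0554).

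ACACB, whose product malonyl-CoA inhibits CPT1, differed by 0.49 (SE 0.16, adjusted p = 0.0406), and PEX2 by 0.34 (SE 0.11, adjusted p = 0.0345). The ACACB call was lost in DESeq2 (adjusted p = 0.0809) and without shACSL5_PA replicate 1 (0.0506) or 2 (0.108), shControl_PA replicate 3 (0.107), shACSL5 replicate 1 (0.0989) or 3 (0.0944) or shControl replicate 1 (0.0695) or 2 (0.121). The PEX2 call was lost in DESeq2 (adjusted p = 0.0654) and without shACSL5_PA replicate 1 (0.0808) or 3 (0.0796), shControl_PA replicate 1 (0.0969) or 3 (0.0809), shACSL5 replicate 2 (0.0633) or 3 (0.0726) or shControl replicate 2 (0.0704) or 3 (0.0685).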

How the results depend on the processing

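Of the 64 calls among the 31 genes, 48 held in all 19 alternative settings (18 for the interaction) and 16 were lost in some, and no alternative turned a direction. Leaving out 1 library at a time gave 20 to 24 genes called for the knockdown without palmitate (23 with all libraries), 15 to 20 under palmitate (19), 6 to 9 for palmitate in knockdown cells (9), 8 to 10 in control cells (10), and 3 to 5 for the interaction (3), of which 2 to 4 were higher (2). The 5 interaction calls, 4 of them higher, came without shACSL5 replicate 1. No pairing of libraries by replicate number was established. Deviations from the group means correlated at -0.0424 to 0.0804 between the 18 same-numbered pairs (median 0.0116). Between the 36 others they correlated at -0.0765 to 0.078 (median -0.0089). Averaged over the libraries of each number, the correlation was highest for the library's own number in 8 of 12 libraries. Pairing was taken to need every same-numbered pair over 0.1, which was not met, so the main model held none. With the replicate number as a block, 24, 19, 9, 10 and 4 genes were called in the same order of comparisons. The samples share only a number, so these values are no paired result. Library sizes alone changed the median of all genes by less than 0.1 on the log2 scale. Calls with small changes were lost in other settings as well. With library sizes alone, HADHA lost its calls for the knockdown without palmitate (adjusted p = 0.0735) and for palmitate in knockdown (0.0914) and control cells (0.193), ETFB lost its call for palmitate in control cells (0.0509), and HSD17B4 lost that for palmitate in knockdown cells (0.0977). The HSD17B4 call was also lost with RLE factors (adjusted p = 0.0511), in DESeq2 (0.0504) and with only the groups compared (0.0877), and that of CPT2 in DESeq2 (0.0678), with no filter on low counts (0.0626) and with only the groups compared (0.0541). For the knockdown without palmitate, ECI2 lost its call in DESeq2 (adjusted p = 0.102), with no filter (0.0539) and with only the groups compared (0.0631), and DECR1 in DESeq2 (0.0949) and with only the groups compared (0.0724). HADHA lost its call for the knockdown under palmitate with no filter (adjusted p = 0.0798) and for palmitate in knockdown cells with only the groups compared (0.101). The cause of these losses was not tested. PECR and EHHADH, under 10 CPM in every library, had the largest SE, up to 0.16 in the pairs of groups. The part of depth in these SE was not tested.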
